A study of Xenopus laevis with 4 samples.

Results

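The transcription regulators described here are id2, id3, id4, tbx2, tbx3, ventx1.1, hes1, gata2 and gata3, genes known to respond to bone morphogenetic protein (BMP) signalling in one tissue or another. Their members were all probesets whose gene symbol, without the suffix of its gene copy, was one of these 9 names, which gave 16 of the 15491 probesets tested. A probeset is a set of short probes on the Affymetrix *Xenopus laevis* array, meant to read 1 transcript, although some probesets can also bind similar transcripts. The frog is allotetraploid, and L or S after a symbol names the homeologous copy, on the longer or the shorter chromosome of a pair. All 9 genes were measured by at least 1 probeset.

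The arrays compared regenerating hindlimb blastemas of wild type (WT) tadpoles with the pseudoblastemas of sibling N1 transgenics, the non-regenerating tissue of the study. N1 tadpoles descend from a single insertion founder and carry a transgene in which the *Hsp70* heat shock promoter drives *X. laevis* Noggin, linked to GFP under the lens-specific γ-crystallin promoter. WT and N1 animals were heat shocked in the same way before and after amputation at the future ankle at NF stage 52. Tissue was taken at 3 days after amputation, and each of the 2 WT and 2 N1 samples was a pool from 20 hindlimbs hybridised to its own array. The heat shock promoter is not specific to a tissue, and Noggin is a secreted protein.

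BMP ligands bind paired serine-threonine kinase receptors, which phosphorylate the receptor Smads (Smad1, Smad5 and Smad9). These enter the nucleus with Smad4 and switch on target genes, of which the *Id* genes are among the most direct. Noggin binds BMP ligands outside the cell and keeps them from their receptors. In limb buds of the mouse and chick, BMPs act on the apical ridge, on the anterior and posterior margins and on the digits, and in the *Xenopus* embryo they maintain ventral and epidermal gene expression. The question put to the 16 probesets was whether they differed between tissue with and without the Noggin transgene.

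No member probeset passed the test, in either direction. Signals were compared on the log2 scale with limma, a linear model that shares the estimate of spread across probesets, and p-values were adjusted by the method of Benjamini and Hochberg over all 15491 probesets. At an adjusted p under 0.05, 0 of the 16 probesets were called, against a background of 0.0129% of all probesets called higher in WT and 0.11% called higher in N1. At an unadjusted p under 0.05, 3 of the 16 were higher in N1 (background 6.82%) and 0 were higher in WT (background 4.29%). The 3 were both probesets of id3 whose copy is not given and the probeset of hes1.S. Signals of both WT arrays lay above those of both N1 arrays in 5 member probesets (background 17.9%), those of N1 lay above in 4 (background 24.2%), and the groups overlapped in 7 (background 57.8%). The median log2 difference of WT minus N1 was 0.18 over the 16 probesets and -0.07 over all probesets tested. It was 0.02 over the 10 members at or above the median level and 0.004 over all probesets at or above it. Among those 10 members the 3 higher in N1 and the 0 higher in WT at an unadjusted p under 0.05 stand against backgrounds of 8.31% and 7.02%, and the 4 with both N1 arrays above and the 3 with both WT arrays above against 23.2% and 24.1%. With 2 arrays a group, the smallest two-sided p of an exact permutation test is 0.333, so none is given for single probesets.

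**Figure D1:**
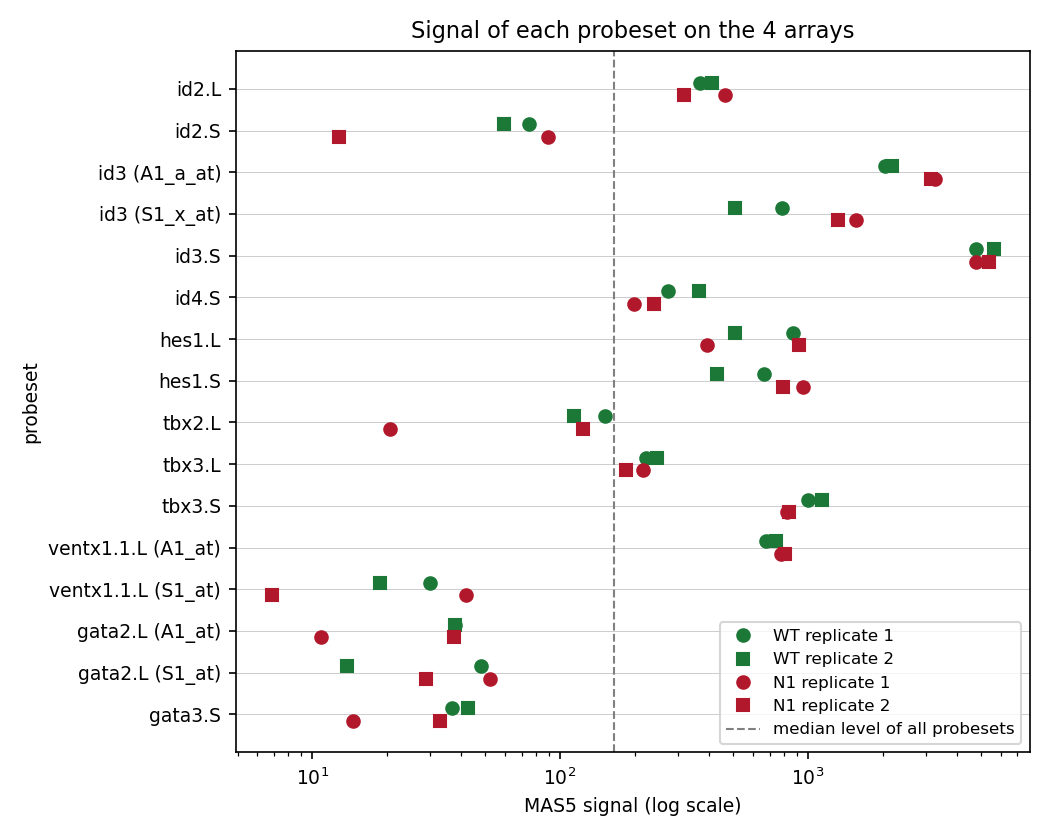
MAS5 signal (log scale) of the 16 member probesets on the 4 arrays, with circles for replicate 1 and squares for replicate 2, green for WT blastemas and red for N1 pseudoblastemas, and the dashed line at the median level of all probesets, 165. The 2 id3 probesets without a copy suffix have both N1 arrays to the right of both WT arrays, and each of the 6 probesets left of the line has replicates far apart in at least 1 group.

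The values given below for each array are MAS5 signals in linear units, replicate 1 before replicate 2, and signals of different probesets cannot be set against each other. Noggin was measured by 1 named probeset, nog.L, at 91.8 and 95.5 in WT against 75.6 and 52.2 in N1. Where its probes lie relative to the coding sequence in the transgene is not known here. Tissue was also not taken directly after the last heat shock, and transgene RNA at that time was not measured separately. The EGFP control probeset read 16.1 and 29.4 in WT against 123 and 108 in N1, so both N1 arrays were higher. All these values lay below the median level of all probesets, 165, and the GFP of the transgene is under a lens-specific promoter. What this probeset reads in limb tissue was not tested. Of 23 listed markers of limb mesenchyme and apical epithelium, 15 genes were measured by 29 probesets, of which 11 reached the median level. Among the 11 were hand2.S, hoxa11.S, hoxd13.S, msx1.L, pitx1.L and shh.L, while both probesets of fgf10.S lay below the median level. By the log2 difference 8 of the 29 were toward WT and 21 toward N1 (over all probesets tested, 44.1% and 55.9%). Of the 21 mesenchyme probesets 8 were toward WT and 13 toward N1, and of the 8 apical epithelium probesets 0 and 8. These 8 read only 4 genes, and only 3 of them reached the median level. Over all probesets below that level, 2920 were toward WT and 4825 toward N1. In 5 of the 8 the groups overlapped (background 57.8%), and none of the 8 passed an unadjusted p of 0.05 (limma). Of the 11, only hoxa11.S and msx1.L were toward WT, and the other 9 were toward N1 (over all probesets at this level, 3910 and 3836). At an unadjusted p under 0.05 (limma), hoxa11.S was higher in WT, and hoxd13.S and shh.L were higher in N1 (backgrounds at this level 7.02% and 8.31%). In WT against N1, hoxd13.S read 106 and 141 against 270 and 209, and shh.L 230 and 286 against 449 and 373. By its S1_a_at probeset hoxa11.S read 709 and 964 against 310 and 684, a gap of only 1.04-fold at the nearest. Its other probesets lay below the median level. There both WT arrays were above at 128 and 183 against 87.9 and 114. The groups overlapped at 157 and 212 against 122 and 161, and at 47.1 and 53.0 against 52.6 and 52.1. The summed signal of the 29 overlapped between the groups, at 8028 to 8307 in WT and 7848 to 9660 in N1. The summed signal of 32 epidermal probesets was 31242 to 38009 on the WT arrays and 44370 to 51718 on the N1 arrays, and that of 15 red cell probesets was 32542 to 40416 and 77857 to 99337. Such sums are compared between arrays within a list only, and the brightest probesets weigh most in them. Among the epidermal probesets krt12.5.S alone read 12602 and 9652 in WT against 11940 and 15047 in N1, which overlapped. In the epidermal list 12 probesets were higher in N1 and 1 was higher in WT at an unadjusted p under 0.05, and in the red cell list 7 and 0, against backgrounds of 6.82% for N1 and 4.29% for WT. At an adjusted p under 0.05 (limma), 1 epidermal probeset (krt18.1.L, 0.0258) and 2 red cell probesets (hba2.L, 0.0299, and hba-l5.L, 0.0368) were called, all higher in N1 (background 0.11%). The 8 cartilage probesets summed to 2215 to 3031 in WT and 1621 to 1789 in N1, and 8 pigment cell probesets to 2147 to 2282 and 3087 to 5302. Of 20 muscle probesets only 1 reached the median level, the A1_at probeset of ckm.L, which weighed heavily in the muscle sum on each array. It read 1342 and 1308 in WT against 1384 and 1671 in N1. The sums for muscle were 2082 to 2088 in WT and 2405 to 3541 in N1. For endothelium, leucocytes and nerve they overlapped between the groups (1650 to 1678 and 1482 to 1910, 2164 to 2304 and 2279 to 2570, and 4892 to 5684 and 4587 to 5068). The part of this cell make-up in the members' values was not tested, and in a pool of whole tissue fewer cells of a type and less RNA per cell cannot be told apart.

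Id proteins are helix-loop-helix factors without a DNA-binding region. They hold E proteins in inactive pairs and so keep cells from differentiating, and their genes are induced directly by Smads in many vertebrate cells. The array held 6 probesets for id2, id3 and id4, and none matched id1. By the mean of log2 signals 4 of the 6 were higher in WT and 2 were higher in N1 (over all probesets tested, 44.1% and 55.9%). Of the 4, id2.L and id3.S differed by only 0.02 and 0.03 on the log2 scale.

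Id3 was read by 3 probesets, which did not give the same picture. The S1_x_at probeset read 785 and 506 in WT against 1557 and 1319.9 in N1. Both N1 signals lay above both WT signals, and the lower N1 signal was 1.68-fold the higher WT signal. The mean in N1 was 2.23-fold that in WT, with a log2 difference of WT minus N1 of -1.19 (SE 0.25, 95% interval -1.76 to -0.62). The adjusted p was 0.140 from limma, so the difference did not pass the adjustment over all probesets. This was the smallest p among the 16 members (0.00124 before adjustment, limma), and it stayed under 0.05 in every alternative run, from 7.9e-05 with the replicate number as a block to 0.0223 without the variance trend. The suffix _x_at marks a probeset in which some probes can also bind other, similar transcripts.

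The A1_a_at probeset read 2039 and 2184 in WT against 3256 and 3122 in N1. The replicates lay close together, and the lower N1 signal was 1.43-fold the higher WT signal. Its mean in N1 was 1.51-fold that in WT (log2 difference -0.60, SE 0.17, limma adjusted p = 0.244). Before adjustment its p was 0.00739 from limma, and it was 0.0611 without the variance trend, 0.100 without WT replicate 1 and 0.0577 without WT replicate 2, with log2 differences of -0.60, -0.55 and -0.64. Both probesets belong to 1 cluster of the array design and carry the symbol id3 with no copy suffix, so they were not counted as separate genes. Which copy each of them reads is not known here. The log2 ratio of A1_a_at to S1_x_at differed between WT and N1 by 0.59 and did not overlap between the groups.

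The probeset of id3.S read 4748 and 5611 in WT against 4768 and 5355 in N1. The groups overlapped, and their means differed by less than the spread between replicates (5180 ± 610 and 5062 ± 415, SD, n = 2). The 95% interval of its log2 difference ran from -0.38 to 0.44, so that it leaves room for at most 1.35-fold lower and 1.30-fold higher signal in N1. The log2 ratio of S1_x_at to id3.S differed between WT and N1 by -1.22 and that of A1_a_at by -0.63, and neither ratio overlapped between the groups. These differences between probesets were not tested.

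**Figure D2:**
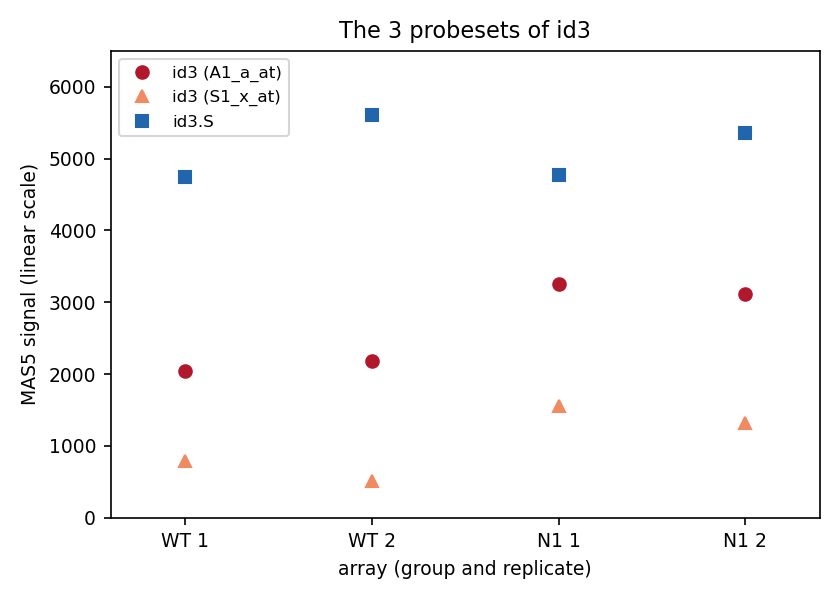
MAS5 signal (linear scale, from 0) of the 3 id3 probesets (marker shapes and colours) on each array, where heights are to be compared within a probeset only. The signal of id3.S lies between 4748 and 5611 in both groups, while A1_a_at moves from 2039 and 2184 in WT to 3256 and 3122 in N1, and S1_x_at from 785 and 506 to 1557 and 1319.9.

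Id2 was measured by 1 probeset for each copy, and neither passed. The probeset of id2.L read 366 and 410 in WT against 461 and 317 in N1. The WT signals lay between those of N1, the ratio of the means of N1 over WT was 1.00, and the 95% interval of the log2 difference, -0.59 to 0.63, leaves room for at most 1.55-fold lower or 1.51-fold higher signal in N1. The probeset of id2.S read 75.0 and 59.2 in WT against 89.6 and 12.9 in N1. Its N1 arrays were the highest and the lowest of the 4. They differed by 2.80 on the log2 scale, more than the WT and N1 means did (0.97, SE 0.85, limma adjusted p = 0.715). Without N1 replicate 1 the log2 difference of id2.S was 2.37 and without N1 replicate 2 it was -0.43.

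Id4 is active in neural and other progenitors of mammals. The probeset of id4.S read 272 and 362 in WT against 198 and 238 in N1. Both WT signals were above both N1 signals, by a gap of 1.14-fold. The WT mean was 1.45-fold the N1 mean (log2 difference 0.53, SE 0.29, 95% interval -0.12 to 1.18), which did not pass (limma adjusted p = 0.543).

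Hes1 is a basic helix-loop-helix repressor best known as an effector of Notch, and it also responds to BMP in some cells. The probeset of hes1.S read 665 and 431 in WT against 952 and 794 in N1. Both N1 signals were above both WT signals, and the mean was 1.59-fold higher in N1 (log2 difference -0.70, SE 0.26, 95% interval -1.29 to -0.11). The unadjusted p was 0.0256 and the adjusted p 0.372 from limma. The unadjusted p was 0.100 without the variance trend, 0.250 without WT replicate 2 and 0.0895 without N1 replicate 1. Without WT replicate 2, which gave the lowest of the 4 signals, the log2 difference was -0.39, and without WT replicate 1 it was -1.01. The probeset of hes1.L read 870.2 and 508 in WT against 391 and 923 in N1. The N1 arrays held both the lowest and the highest signal. The log2 difference of hes1.L was 0.15 (SE 0.41), turned to -0.24 without WT replicate 1 and to -0.47 without N1 replicate 1, and was 0.77 without N1 replicate 2. The log2 ratio of hes1.L to hes1.S was 0.39, 0.24, -1.28 and 0.22 on the arrays of WT 1, WT 2, N1 1 and N1 2, so the array of N1 replicate 1 stood apart from the others and the copies did not move together on it.

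Tbx2 and Tbx3 are T-box repressors of the same subfamily. In the mouse and chick limb bud they are expressed along the anterior and posterior margins, and in the mouse both have been placed downstream of BMP signalling in several organs. All 3 of their probesets had a higher mean in WT (over all probesets tested, 44.1% by the log2 difference), and none passed. The probeset of tbx3.S read 1001 and 1135 in WT against 824 and 841 in N1. The groups did not overlap, and the WT mean was 1.28-fold the N1 mean (log2 difference 0.36, SE 0.19, 95% interval -0.09 to 0.80, limma adjusted p = 0.546). With each array centred on its median, which adds 0.11 to every WT minus N1 difference, it became 0.47 (0.0453 before adjustment, limma). The probeset of tbx3.L read 221 and 246 in WT against 216 and 185 in N1. The WT arrays were again above those of N1, here by 1.02-fold at the nearest, and the mean was 1.16-fold higher in WT (limma adjusted p = 0.819).

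The probeset of tbx2.L read 152 and 114 in WT against 20.7 and 123 in N1. The array of N1 replicate 1 was low, while that of N1 replicate 2 lay between the WT arrays. The log2 difference of tbx2.L was the largest of the 16 in size, at 1.39, with a standard error of 0.75 (limma adjusted p = 0.546). It rested on 1 array: without N1 replicate 2 it was 2.67 (limma adjusted p = 0.0458), and without N1 replicate 1 it was 0.10. The copy of tbx2 on the S chromosome was not among the named probesets.

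Ventx1.1 encodes a homeobox repressor of the Vent family, which in the *Xenopus* gastrula is induced by BMP4 and keeps dorsal genes off in the ventral side. Both of its probesets were assigned to the L copy. The A1_at probeset read 678 and 744 in WT against 778 and 805 in N1. Both N1 signals were above both WT signals by 1.05-fold at the nearest, and the N1 mean was 1.11-fold the WT mean (log2 difference -0.16, SE 0.20, limma adjusted p = 0.817). Its 95% interval, -0.61 to 0.30, leaves room for at most 1.23-fold lower or 1.53-fold higher signal in N1. The S1_at probeset read 29.8 and 18.8 in WT against 41.6 and 6.88 in N1, which lie among the dimmest 25% of all probesets. Its replicates in N1 differed by 2.60 on the log2 scale and the direction of its difference turned without N1 replicate 2 (from 0.49 to -0.81).

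Gata2 and Gata3 are zinc finger factors. In the *Xenopus* embryo they mark ventral ectoderm under BMP, Gata2 is also needed for blood progenitors, and in the mouse Gata3 acts in T cells and in skin. Their 3 probesets lay among the dimmest 25% of all probesets, with a standard error of the log2 difference between 0.66 and 0.75. The A1_at probeset of gata2.L read 37.7 on both WT arrays against 10.8 and 37.4 in N1. N1 replicate 1 was low, and N1 replicate 2 differed from WT by a ratio of 1.01. The S1_at probeset of gata2.L read 47.9 and 13.8 in WT against 52.0 and 28.7 in N1, which overlapped. The log2 differences of these probesets had opposite signs, 0.90 and -0.59 (limma adjusted p = 0.699 and 0.818), and both intervals include 0. The probeset of gata3.S read 36.8 and 42.4 in WT against 14.6 and 32.7 in N1. Both WT signals were higher, by 1.13-fold at the nearest, and the log2 difference was 0.85 (SE 0.66, limma adjusted p = 0.679).

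**Figure D3:**
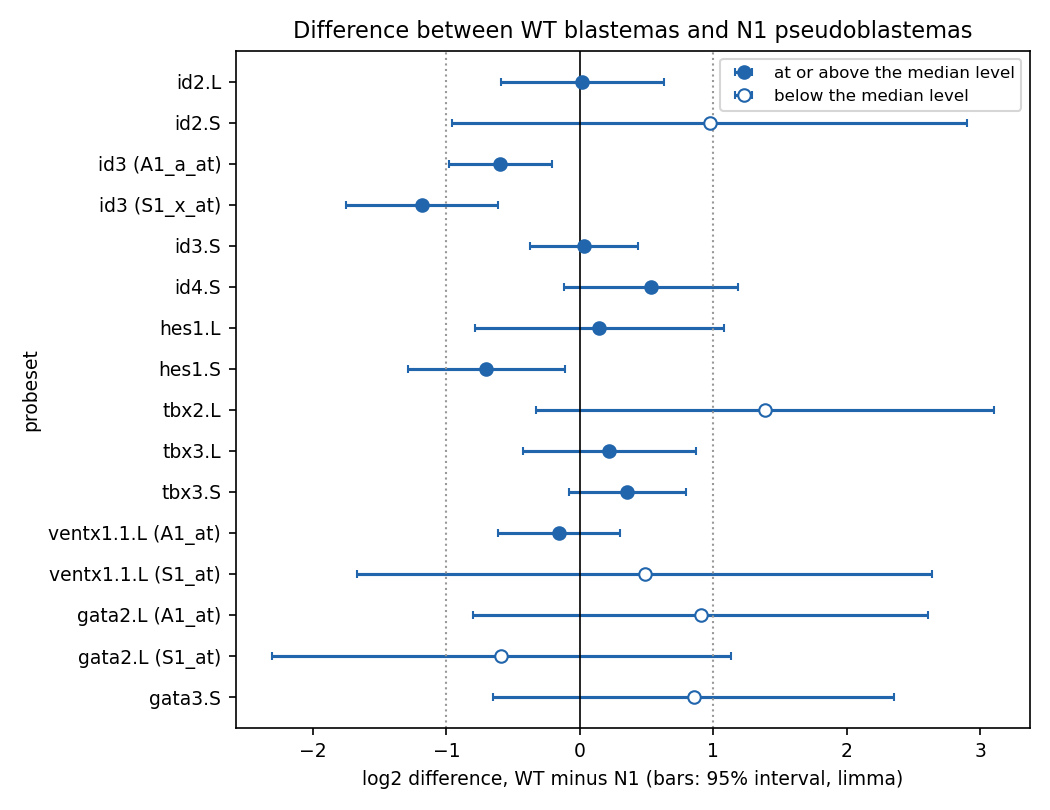
Log2 difference of WT minus N1 for each member probeset with its 95% interval from limma, filled at or above the median level and open below it, with dotted lines at a 2-fold change in either direction. The intervals of the 2 id3 probesets without a suffix and of hes1.S lie left of 0, and the 6 open points have the widest bars.

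How small a difference the arrays could have shown depended on the level. Standard errors of the log2 differences ran from 0.17 to 0.41 in the 10 members at or above the median level and from 0.66 to 0.94 in the 6 below it. Of the 10, 8 had a 95% interval that excluded a 2-fold lower signal in N1 and 6 had one that excluded a 2-fold change in either direction. These 6 were id2.L, id3.S, the A1_a_at probeset of id3, tbx3.L, tbx3.S and the A1_at probeset of ventx1.1.L. The intervals of id4.S and hes1.L left room for a 2-fold lower signal in N1. Those of all 6 dim members did too, among them tbx2.L, id2.S and all 3 GATA probesets. These intervals are not adjusted for the number of probesets.

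The rest of the pathway was read from a list of 72 genes, chosen from textbook roles, of which 46 were measured by 73 probesets. None of the 73 was called at an adjusted p under 0.05 (limma). At an unadjusted p under 0.05, 7 were higher in N1 and 1 was higher in WT, against backgrounds of 6.82% and 4.29%. Both N1 arrays were above both WT arrays in 24 of the 73 (background 24.2%) and the reverse held in 6 (background 17.9%). The median log2 difference of the list was -0.22 (all probesets tested, -0.07). It was -0.57 without N1 replicate 2 and -0.02 without N1 replicate 1, so this median rested on the array of N1 replicate 1. That array also had the highest median signal over all probesets, 175 against 157 to 167 on the others. Whether the shift was particular to the list was not tested. Among the 24 probesets of the list at or above the median level it was -0.08, with both WT arrays above in 5 (background at this level 24.1%) and both N1 arrays above in 7 (background 23.2%).

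Of 9 ligand probesets, 3 were higher in N1 at an unadjusted p under 0.05 (background 6.82%) and 0 were higher in WT (background 4.29%). Bmp7.1.L, a BMP ligand, read 1904 and 1189 in WT against 1925 and 2985 in N1. The mean was 1.59-fold higher in N1, and the nearest arrays of the groups differed by less than the WT replicates did (limma adjusted p = 0.431). The other 2 were the probesets of bmp2.L and bmp2.S, which lay below the median level and are named here after their values were seen. Bmp2.L read 89.4 and 42.6 in WT against 129 and 253 in N1, and bmp2.S 90.9 and 90.01 in WT against 151 and 175 in N1 (limma adjusted p = 0.308 and 0.422). Besides bmp7.1.L, only the ligand probeset of bmp4.S reached the median level, and it is also named after its values were seen. Bmp4.S went the other way, at 351 and 262 in WT against 242 and 249 in N1, with both WT arrays above (limma adjusted p = 0.729). By the log2 difference 3 of the 9 ligand probesets were toward WT and 6 toward N1. Among the receptors, the type I receptor bmpr1a.L read 1395 and 1576 in WT against 1842 and 1877 in N1 by its S1_at probeset (1.25-fold higher in N1, limma adjusted p = 0.550), while in its S1_x_at and S1_a_at probesets, named after their values were seen, the groups overlapped. None of the 11 receptor probesets passed an unadjusted p of 0.05.

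Of the 6 probesets of the Smads that carry the signal, 3 were toward WT and 3 toward N1 (over all probesets tested, 44.1% and 55.9%). Smad1.S read 312 and 272 in WT against 202 and 268 in N1 by its A1_at probeset, smad4.L, the common partner, 801 and 626 against 544 and 615 by its S2_at probeset, and smad9.S 607 and 329 against 633 and 608. Both WT arrays were above both N1 arrays for these probesets of smad1.S and smad4.L, by only 1.01-fold and 1.02-fold at the nearest. The reverse held for smad9.S, by only 1.003-fold. The S1_at probesets of smad1.S and smad4.L lay below the median level and are named after their values were seen. That of smad1.S went the other way from its A1_at probeset, at 98.6 and 33.6 in WT against 143 and 124 in N1. That of smad4.L overlapped, at 116 and 72.4 in WT against 81.8 and 84.2 in N1. None of the 6 passed, with limma adjusted p-values from 0.466, for the S1_at probeset of smad1.S, to 0.990. None of the 6 probesets of the inhibitory Smads and Smurfs passed an unadjusted p of 0.05 (backgrounds 6.82% higher in N1 and 4.29% higher in WT). In all 6 the groups overlapped (background 57.8%).

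Grem1.L, which encodes the secreted BMP antagonist Gremlin, had the smallest p of the list. Its signals were 1034 and 819 on the WT arrays and 351 and 304 on the N1 arrays, so that the groups were well apart. The WT mean was 2.83-fold the N1 mean (log2 difference 1.495, SE 0.231, limma adjusted p = 0.0616). Gremlin was singled out in the study from these same arrays, so its direction here is not independent evidence. Beyond the arrays, the paper reported higher *Gremlin* in WT by qPCR on the remaining RNA of these samples. By in situ hybridisation of limbs it described much weaker expression in N1 than in WT at 3 days after amputation. It passed at the adjusted threshold when dim probesets were left out at the median (0.0497) or the 25th percentile (0.0394) and without N1 replicate 2 (0.0310), and over all alternatives its adjusted p ranged from 0.00543, with the replicate number as a block, to 0.398, without the variance trend. The follistatin-like gene fstl1.L read 364 and 285 in WT against 526 and 567 in N1 (1.68-fold higher in N1, limma adjusted p = 0.299). The pseudoreceptor bambi.S, itself a target of BMP, read 263 and 173 in WT against 139 and 184 in N1, which overlapped.

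Of 18 probesets of other genes known to respond to BMP, 15 were toward N1 and 3 toward WT by the log2 difference (over all probesets tested, 55.9% and 44.1%). Only 7 of the 18 reached the median level. Over all 7745 probesets below that level, 4825 were toward N1 and 2920 toward WT, and over all 7746 at or above it, 3836 and 3910. Of the 18, 1 passed an unadjusted p of 0.05 and was higher in N1 (background 6.82%). This was grhl1.L, a transcription factor of the surface epidermis, which read 340 and 171 in WT against 542 and 615 in N1 (2.27-fold higher in N1, limma adjusted p = 0.220). Grhl1 is also a member of the epidermal marker list, whose summed signal was higher on both N1 arrays. Msx1.L, a homeobox factor of limb mesenchyme, read 570 and 459 in WT against 382 and 397 in N1, and both WT arrays were above both N1 arrays (1.32-fold, limma adjusted p = 0.582). The homeobox genes dlx3.S and dlx6.S were the other way round. Dlx3.S read 464 and 293 in WT against 473.5 and 597 in N1, a gap of only 1.02-fold at the nearest (limma adjusted p = 0.546). Dlx6.S read 248 and 237 in WT against 360.01 and 298 in N1 (limma adjusted p = 0.588). The probeset of dlx3.L, named after its values were seen, overlapped at 215 and 184 in WT against 194 and 277 in N1.

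**Figure D4:**
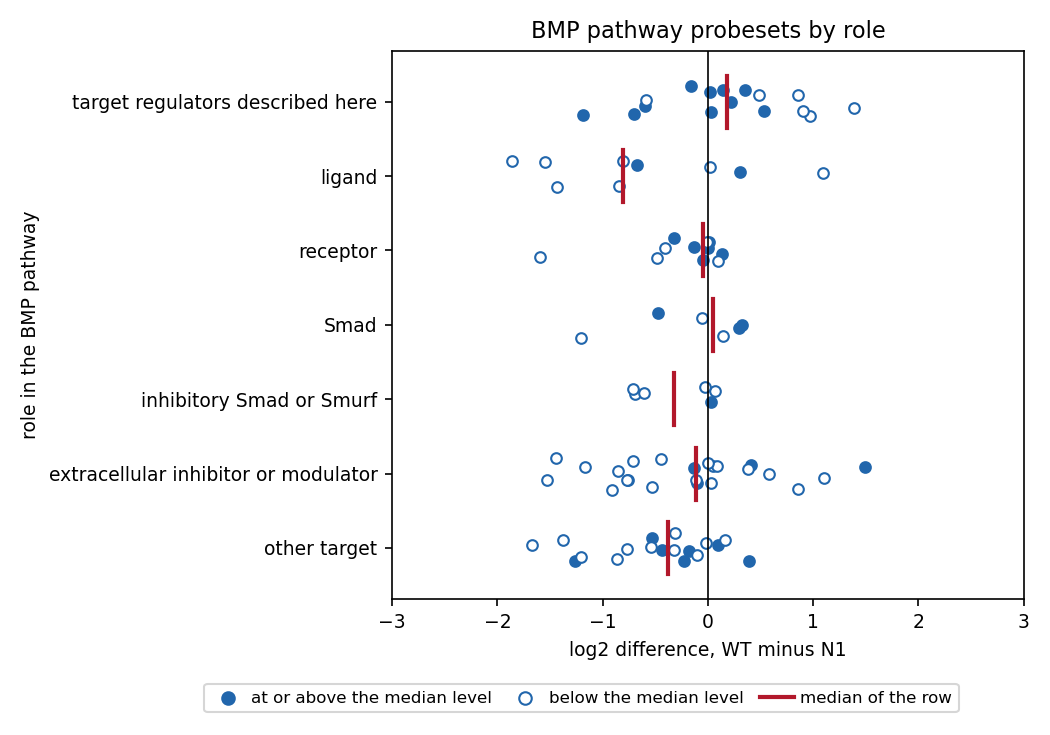
Log2 difference of WT minus N1 of each probeset of the BMP pathway by role, with the 16 target regulators in the top row, filled points at or above the median level, open points below it, and the red bar at the median of the row. The point farthest right among the bright ones is grem1.L, and the top row is spread on both sides of 0 with a median of 0.18.

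The transcripts of proteins listed as partners of the members were measured by 18 probesets of only 9 genes, so several probesets read the same gene. Of the 18, 15 were toward WT and 3 toward N1 (over all probesets tested, 44.1% and 55.9%). In 15 of the 18 the groups overlapped (background 57.8%). E proteins, the partners held by Id proteins, had 9 probesets of 3 genes, and tcf3.S read 207 and 252 in WT against 192 and 174 in N1 (limma adjusted p = 0.728). The Groucho corepressor tle2.L, of the family that Hes proteins recruit, was the only 1 of the 18 past an unadjusted p of 0.05. The backgrounds are 4.29% higher in WT and 6.82% higher in N1. Tle2.L read 994 and 1084 in WT against 645 and 593 in N1 (1.68-fold higher in WT, limma adjusted p = 0.216, 0.00493 before adjustment). Tle5.L, a relative of tle2 counted in the same list, overlapped at 1176 and 1241 in WT against 1257 and 933 in N1. Of 31 probesets of relatives of the members (other GATA, T-box, Hes and Hey genes), 1 passed an unadjusted p of 0.05, against the same backgrounds. It was that of tbx1.S, named after its values were seen, which read 8.11 and 7.27 in WT against 40.8 and 58.6 in N1, all dim. The hes2.L and hes4.S probesets above the median level overlapped between the groups. Of the Notch pathway, which acts on hes1, 0 of 16 probesets passed an unadjusted p of 0.05 (limma), against the same backgrounds. By the log2 difference 4 of the 16 were toward WT and 12 toward N1 (over all probesets tested, 44.1% and 55.9%). Of the 9 at or above the median level it was 1 and 8 (over all probesets at this level, 3910 and 3836). The ligand jag1.L read 269 and 274.5 in WT against 391.5 and 369 in N1, 1.40-fold higher in N1 (limma adjusted p = 0.517). Mib1.L, a ubiquitin ligase that activates Notch ligands, was the other way round by the probeset of smallest p, at 285 and 387 in WT and 265 and 233 in N1. The other probesets of mib1.L are named after their values were seen. Its S1_at probeset, below the median level, also had both WT arrays above, at 102 and 91.6 in WT against 71.3 and 56.5 in N1. Its other A1_at probeset overlapped, at 285 and 294 against 344 and 247. Adam10.S, a protease that cleaves Notch, was by its A1_at probeset at 551 and 622 in WT and 667 and 831 in N1.

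Likeness between genes was described by the root mean square distance of log2 signals, each centred on its mean, over the 4 arrays among 5191 named probesets at or above the median level. The probeset nearest to hes1.S was that of a claudin of epithelial junctions, cldn6.2.S, which read 816 and 505 in WT against 1104 and 993 in N1 (distance 0.045). Nearest to id3.S was cap1.L (0.017) and nearest to tbx3.S mapre1.L (0.0077). For id2.L, id4.S and ventx1.1.L the nearest were gtf2f2.S (0.022), sf3b1.S (0.020) and mtch2.L (0.011). With 4 arrays and so many candidates a close neighbour is found for any probeset, and nothing about shared function follows from it.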

How the data were processed

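The authors labelled each RNA pool with a 2-cycle kit, hybridised it to an Affymetrix *Xenopus laevis* array and made the deposited signal intensity of each probeset on a linear scale with the MAS5 algorithm in GCOS, and on each array the mean of these values was 500 after trimming 2% at each end. The versions of GCOS and MAS5 are not given in the sources used here. The median signal was 157 to 175. The 120 control probesets were left out, and of 15491 probesets 9304 had 1 symbol in the platform annotation, 195 several and 5992 none. Of the 16 members, 14 had their gene in the RefSeq table of *X. laevis*.

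Log2 signals were fitted with limma 3.58.1 in R 4.3.3, by lmFit and then eBayes with its trend option, without renormalisation or pseudocount, and the script was tested on simulated data. Fold changes are ratios of mean linear signals. The median level of all probesets was a signal of 165. Where nothing says that pools were independent matings, p-values measure the spread between these pools of sibling tadpoles. The members and lists were chosen with earlier results of these data known. Every member was named. From the pathway list, the 12 of smallest p with a level not under the median were named, with nog and grem1, and from each of the lists of partners, relatives and Notch genes 3, except where the text says otherwise. Detection calls were not used here. Alternatives left out 1 array at a time, dim probesets or the variance trend, took the replicate number as a block, normalised by quantiles or centred on medians, added 16 or 64 to the signal, and used geometric means or 1 probeset per gene.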

Additional observations from a re-analysis of the deposited data

How the results depend on the processing

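With limma, 19 of all probesets were called at an adjusted p under 0.05. The number was 0 without the variance trend, 36 and 68 with level filters at the median and the 25th percentile, 10 with median centring, 6 with 64 added before log2, 200 with the replicate block and from 0, when WT replicate 2 was left out, up to 334, when N1 replicate 2 was.

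Member probesets called were 0, and 1 with the replicate block (the _x_at probeset of id3, adjusted p = 0.0154) and 0 to 1 with an array left out (tbx2.L without N1 replicate 2, 0.0458). Those at an unadjusted p under 0.05 and higher in N1 were 3, and 1 without the variance trend or with the brightest probeset of each gene, and 1 (without WT replicate 2) to 3 with an array left out. Those higher in WT were 0, but 1 with median centring (tbx3.S), 1 with the replicate block (tbx2.L) and 0 to 2 with an array left out (id2.S without N1 replicate 1, and hes1.L and tbx2.L without N1 replicate 2). The median log2 difference of the members was 0.18, and with an array left out -0.01 (without N1 replicate 2) to 0.29.

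Of the BMP pathway list, 1 probeset, grem1.L, was called with either level filter and with the replicate block and 0 to 2 with an array left out. Those higher in N1 at an unadjusted p under 0.05 were 7, 2 with the filter at the median and from 2, without WT replicate 2, up to 11, without N1 replicate 2, with an array left out, and those higher in WT 1 to 2. Its median was -0.571 to -0.0203 with an array left out. Of the partners, relatives and Notch lists 1 was higher in N1 and 1 in WT, with 2 higher in N1 without the variance trend, 0 with either level filter, 2 with the replicate block and 1 to 7 with an array left out, where 0 to 4 were higher in WT.

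With 1 array left out the log2 difference turned for 6 members: gata2.L S1_at (-1.48 to 0.31), hes1.L (-0.47 to 0.77), id2.L (-0.25 to 0.29), id2.S (-0.43 to 2.37), id3.S (-0.0897 to 0.15) and ventx1.1.L S1_at (-0.81 to 1.78). It also turned for tle5.L (-0.0578, without N1 replicate 2, to 0.372) and for the hes4.S probesets S1_a_at (-0.0537, without WT replicate 1, to 0.619) and S1_x_at (-0.228, without WT replicate 1, to 0.481). The other 10 members kept their direction in every alternative, and no scaling, pseudocount or filter turned a member. The cause of these changes was not tested. The deviations of samples with the same replicate number had a correlation of 0.028, so they were taken to share only a number, and the replicate block was run as an alternative only.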
